A study of Mus musculus with 3 samples.

Results

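The eukaryotic initiation factors (eIFs) are the proteins that bring the small ribosomal subunit, the initiator tRNA and a capped mRNA together. Their mRNAs in RAW 264.7 cells, a mouse macrophage line, were examined for N6-methyladenosine (m6A). Members were all protein-coding genes of GENCODE M21 (GRCm38) named Eif followed by a number, without Eif2ak2. They number 54 of 21951 protein-coding genes. Of the 19301 listed m6A sites, 19180 lay in a protein-coding gene on its strand, and 107 of these lay in an Eif gene. Each site was placed on the transcript with the longest coding sequence (CDS) of its gene. In 7 members, Eif4g1 and Eif4g3 among them, that transcript has support level 5, whereas the authors' own filter kept levels of at most 3.

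The series holds 1 condition. Poly(A)+ RNA of untreated RAW 264.7 cells was taken through miCLIP2 in 3 biological replicates, with no antibody-free or methyltransferase-deficient control among them. The submitters' design text calls the line human, whereas the organism label is mouse, and every site fell on an adenosine of the mouse genome. In miCLIP2 an m6A antibody is crosslinked to fragmented RNA by UV light, reverse transcription stops at the crosslink, and a classifier, m6Aboost, scores each adenosine with such stops. The authors called peaks on each replicate, kept those present in at least 2, and deposited 1 list for all replicates, which keeps adenosines with a score above 0.5 and holds no counts. The score is therefore a confidence of prediction and not a methylation level, the depth behind a site is unknown, and no spread between replicates can be given. Of 10 macrophage marker genes 5 held a site (Csf1r, Spi1, Lyz2, Mpeg1 and Cd14) and 5 did not (Adgre1, Itgam, Cd68, Fcgr3 and Mrc1). Over all protein-coding genes 23.1% held one. None of 12 markers of embryonic stem, lymphoid, epithelial and fibroblast cells did.

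m6A is written on nascent mRNA by a METTL3-containing complex, mostly at the motif DRACH (D is A, G or T, R is A or G, H is A, C or T), and accumulates around stop codons and in long internal exons. Reader proteins that bind it can alter the stability and the translation of the mRNA. Translation starts when eIF4E binds the cap, eIF4G joins it to the helicase eIF4A and to eIF3 on the small subunit, and eIF2 delivers the initiator tRNA. Phosphorylation of eIF2 by stress kinases and release of eIF4E from its binding proteins by mTORC1 are the main points at which the cell regulates this step.

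At least 1 site was listed in 34 of the 54 Eif genes, or 63.0% (95% Wilson interval 49.6 to 74.6%), against 23.1% of all protein-coding genes. The 34 genes included members of all 10 groups of factors into which the family was divided. A number of 5 or more sites was reached by 7 members, or 12.96% (6.42 to 24.4%), against 6.98% of all protein-coding genes, and these 7 held 49 of the 107 sites. Exactly 1 site was found in 8 members, 2 sites in 9, 3 sites in 8 and 4 sites in 2. Among genes with a site the median number was 2.5 in the Eif genes and 3 in all genes. The background covers every annotated gene, also those silent in macrophages, and RNA levels were not analysed here, so the part that expression has in the difference was not tested. The share was higher in the Eif genes than in all genes in each of 3 classes of transcript length. Below 2000 nt, 12 of 22 Eif transcripts (54.5%) and 14.9% of all transcripts held a site. From 2000 to below 4000 nt the shares were 13 of 18 (72.2%) and 26.1%, and from 4000 nt on 9 of 14 (64.3%) and 31.2%.

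**Figure D1:**
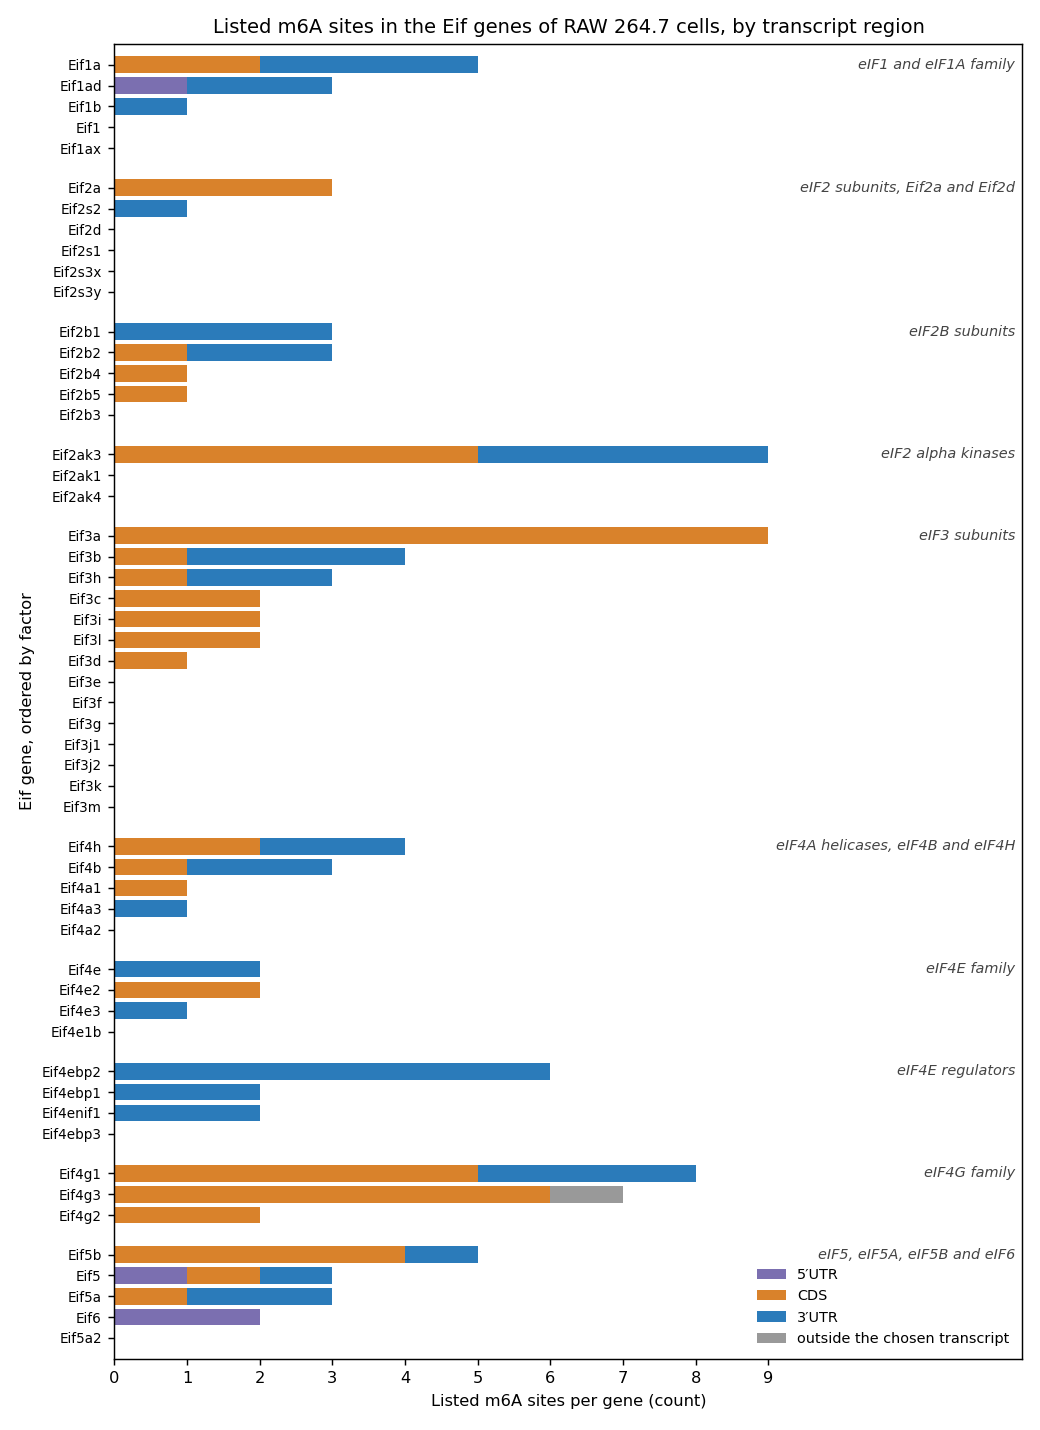
Number of listed m6A sites (horizontal axis, count) in each of the 54 Eif genes (vertical axis), grouped by factor and coloured by transcript region. Eif2ak3 and Eif3a held 9 sites each, 20 genes held none, and the eIF4E regulators held sites only in the 3′UTR. Among these regulators, Eif4ebp1 and Eif4ebp2 have a CDS of only 354 and 363 nt.

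The 5 sites with the highest scores are shown first, as 21 bases of GRCm38 read 5′ to 3′ on the strand of the gene, with the 5-base motif around the listed adenosine in capitals. All of them lay in a 3′UTR, and they carried 3 different motifs.
Eif1b, 3′UTR, chr9:120495040-120495060, plus strand: taaacgacAGACTttgcgttt
Eif3h, 3′UTR, chr15:51786681-51786701, minus strand: gagtagacAGACTgttgagag
Eif3b, 3′UTR, chr5:140443263-140443283, plus strand: tgtgccagAAACTctggaggc
Eif1ad, 3′UTR, chr19:5370108-5370128, plus strand: ttgctcagGGACTaccccttg
Eif4ebp2, 3′UTR, chr10:61431663-61431683, minus strand: cctcctatGGACTctgaatcc

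Eif1b, a paralogue of the start-codon selection factor Eif1, had the highest score of the family, 0.957, at an AGACT motif 95 nt after the first base of the stop codon. The Eif3h site scored 0.947 and lay 39 nt after that base, and the Eif1ad site scored 0.944 at 35 nt. The Eif3b site, also 0.944, lay at 415 nt, and the Eif4ebp2 site, 0.937, at 2126 nt. The highest scores thus came both from the vicinity of the stop codon and from far down the 3′UTR. A score of at least 0.9 was reached by 11 sites in 9 members, or 16.7% of the members (9.02 to 28.7%), against 6.20% of all protein-coding genes. All 11 were in the 3′UTR, 8 of them within 200 nt of the stop codon, and 7 had the motif GGACT. The classifier uses the surrounding sequence and the transcript region as features, so scores are not independent of either.

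Taken over the whole family, the sites resembled those of all protein-coding genes in motif and region. In the genome sequence DRACH was found at 98 of 107 Eif sites, 91.6% (84.8 to 95.5%), and at 92.0% of all sites. GGACT was the most frequent motif, with 24 sites or 22.4% (15.6 to 31.2%) against 19.3% of all sites. The CDS held 56 Eif sites, 52.3% (43.0 to 61.6%), and the 3′UTR 46, 43.0% (34.01 to 52.5%), against 51.2% and 43.4% of all sites. The 5′UTR held 4 sites, in Eif1ad, Eif5 and Eif6. Within 200 nt of the stop codon lay 34 of the 106 exonic Eif sites, 32.1% (23.95 to 41.5%), and 32.3% of all exonic sites. The median score was 0.740 for Eif sites and 0.734 for all sites. The Eif sites are included in the figures for all sites, intervals cover counting error only, and sites of 1 transcript are not independent of each other.

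The exons that held the sites differed more. Of the 106 exonic Eif sites, 52 lay in the last exon, 49.1% (39.7 to 58.4%), against 68.5% of all exonic sites. Among CDS sites, 50 of 56 lay before the last exon, 89.3% (78.5 to 94.996%), against 54.9% of all CDS sites. Of these 50, 28 lay in exons over 400 nt, 56% (42.3 to 68.8%) against 73.9% in all genes. Another 19 lay in exons of at most 200 nt, so that 62.0% (48.2 to 74.1%) lay in exons over 200 nt, against 86.4% in all genes. Sites within 50 nt of an exon junction made up 20 of the 106, 18.9% (12.6 to 27.4%), against 5.56% of all exonic sites in transcripts with a junction. With only sites of score 0.7 or more, the share in the last exon was 57.8% in the Eif genes and 75.1% in all genes, and the share within 50 nt of a junction 7.81% and 2.80%. At that score the contrast by exon length no longer showed for exons over 400 nt, which held 20 of the 25 Eif CDS sites before the last exon (60.9 to 91.1%) against 81.5% in all genes, and smaller for exons over 200 nt, with 84.0% (65.3 to 93.6%) and 93.6%. The differences from all genes were not tested, since the members were not drawn at random.

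The number of sites depends on how many DRACH adenosines a region offers, so the share of DRACH adenosines that were listed was computed for each part of the transcript, in the 34 Eif genes and in the 5080 protein-coding genes with a site. In CDS exons over 400 nt before the last, 26 of 112 DRACH adenosines were listed in the Eif genes, 23.2% (16.4 to 31.8%), against 10.1% in all genes. In exons of at most 200 nt the shares were 16 of 877, 1.82% (1.13 to 2.94%), and 0.615%. In the CDS of the last exon they were 4 of 90, 4.44% (1.74 to 10.9%), and 12.8%. Per DRACH adenosine, long internal coding exons of the Eif transcripts had the highest share of any part, above the 3′UTR within 200 nt of the stop codon, where 25 of 133 were listed, 18.8% (13.1 to 26.3%), against 16.3% in all genes, although these 2 intervals overlap. Farther down the 3′UTR the shares were 2.51% and 3.20%, and over whole transcripts 4.34% and 4.63%. Some of these contrasts depended on leaving out genes without a site. Over all 54 members and all protein-coding genes the shares were 2.76% (1.08 to 6.88%) and 2.44% in the CDS of the last exon, with no deficit in the Eif genes, and 1.44% and 0.889% in the farther 3′UTR, the opposite order. Over whole transcripts the order turned too, with 2.84% (2.33 to 3.46%) and 1.24%, and in the 3′UTR within 200 nt of the stop codon the shares were 12.3% (8.48 to 17.5%) and 4.22%. In CDS exons over 400 nt they were 19.3% (13.5 to 26.7%) and 3.35%, and in exons of at most 200 nt 1.23% and 0.178%. Per length, the 34 Eif transcripts held 0.998 sites per kb and the 5080 transcripts 1.01, while over all members, with or without a site, the value was 0.667 against 0.277.

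**Figure D2:**
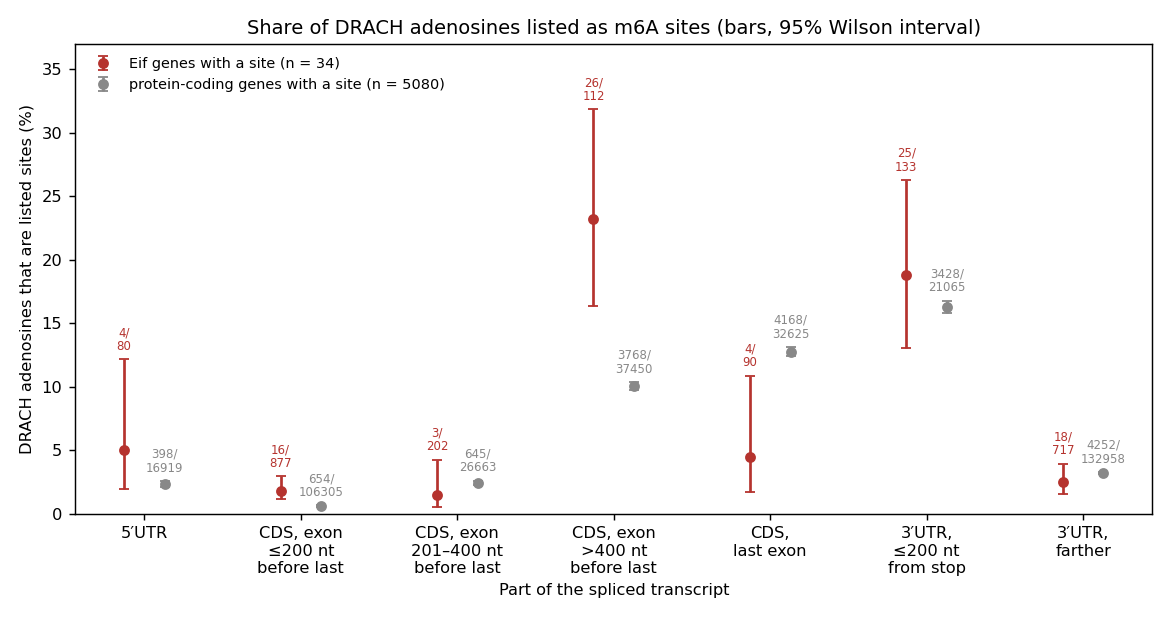
Share of DRACH adenosines that are listed sites (vertical axis, percent, with 95% Wilson intervals) by part of the spliced transcript (horizontal axis) in the 34 Eif genes with a site (red) and the 5080 protein-coding genes with a site (grey). In CDS exons over 400 nt before the last, 26 of 112 were listed in the Eif genes (23.2%) against 10.1% in all genes, and in the CDS of the last exon 4 of 90 (4.44%) against 12.8%, a deficit that is absent over all members and all protein-coding genes, with or without a site (2.76% against 2.44%).

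Only 13 CDS exons over 400 nt precede the last exon in the whole family, in 10 genes, and 8 of them held a coding site. Of all coding exons before the last, 6 held 3 or more sites, 25 sites together, and all 6 were over 400 nt long. They were exon 13 of Eif2ak3 (787 nt, 5 sites), exon 19 of Eif3a (662 nt, 5 sites), exon 11 of Eif4g3 (825 nt, 5 sites), exon 9 of Eif4g1 (813 nt, 4 sites), exon 10 of Eif2a (572 nt, 3 sites) and exon 4 of Eif5b (670 nt, 3 sites). Exon 11 of Eif3l (498 nt) held 2 sites and exon 1 of Eif3b (499 nt) 1. The 5 long exons without a coding site were exon 1 of Eif2ak3, exons 9 and 12 of Eif2ak4, exon 1 of Eif4g1 and exon 1 of Eif6, which holds both 5′UTR sites of that gene, and in 3 of these the coding part offered at most 4 DRACH adenosines.

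**Figure D3:**
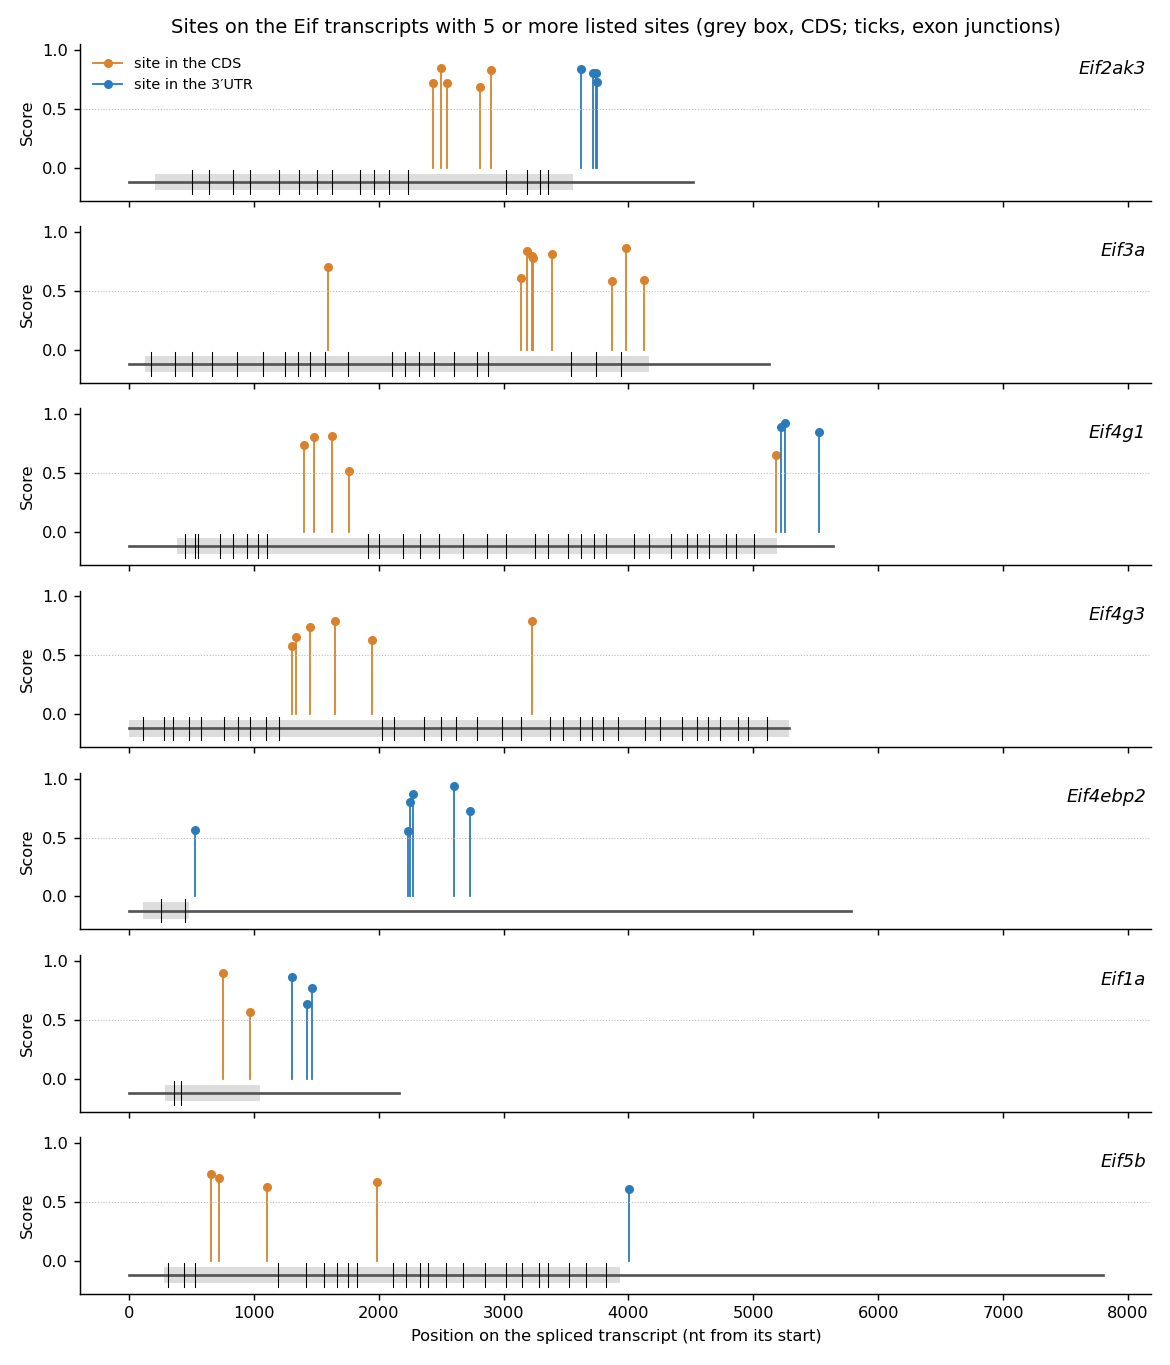
Prediction score (vertical axes, 0 to 1) of each site along the spliced transcript (horizontal axis, nt from its start) of the 7 Eif genes with 5 or more sites, with the CDS as a grey box, exon junctions as ticks, and the lowest listed score of 0.5 dotted. In Eif2ak3, Eif3a, Eif4g1, Eif4g3 and Eif5b most of the coding sites lie in 1 long exon, while those of Eif4ebp2 lie in the 3′UTR, 5 of its 6 sites more than 1000 nt from the stop codon.

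Among the factors that select the start codon, the eIF1 and eIF1A family, 3 of 5 genes held 9 sites in all. Eif1a, which binds the aminoacyl site of the small subunit, held 5 sites in its last exon of 1746 nt. The CDS sites lay 298 nt (GGACG, score 0.895) and 77 nt (GGACA, 0.566) before the stop codon. The 3′UTR sites lay 256 nt (AGACT, 0.862), 377 nt (GTACT, 0.635) and 415 nt (AGACT, 0.766) after it. The chosen Eif1a model carries no transcript support level, and its CDS has 765 nt, against 435 nt in Eif1ax. The CDS label and the distances to the stop codon rest on that model. Of the 5 motifs in Eif1a 2 are not DRACH. Eif1ad, a protein with an eIF1A domain, held 3 sites, 1 of them in the 5′UTR, and Eif1b held 1. Eif1 and Eif1ax held none.

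For eIF2, which carries the initiator tRNA, only Eif2s2, the beta subunit, held a site, 104 nt past the stop codon at AAACT with a score of 0.858. Eif2s1, the alpha subunit that is phosphorylated under stress, and both gamma subunit genes, Eif2s3x and Eif2s3y, held none, nor did Eif2d. Eif2a, an alternative initiator tRNA-binding protein, held 3 sites, all within 50 nt in exon 10. The first pair lay 8 nt apart, so that each motif falls in the flank of the other.
Eif2a, exon 10, chr3:58548503-58548523, plus strand: cctgtgttTGACTttgggact
Eif2a, exon 10, chr3:58548511-58548531, plus strand: tgactttgGGACTggtcctcg
Eif2a, exon 10, chr3:58548549-58548569, plus strand: gccctcatGGACAtatattag
These scored 0.874, 0.743 and 0.791. The score of 0.874 was the highest of the 28 sites in long internal exons.

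In eIF2B, the exchange factor that recharges eIF2 with GTP, 4 of 5 subunit genes held 8 sites. Eif2b1 (alpha) held 3 sites in the 3′UTR with scores of 0.927, 0.663 and 0.518, and Eif2b2 (beta) held 2 there, with 0.847 and 0.888. The remaining Eif2b2 site, AGACT with 0.820, was the highest-scored of the 19 in short internal exons and lay on the base next to an exon junction. Eif2b4 (delta) and Eif2b5 (epsilon, the catalytic subunit) each held 1 site, 21 and 29 nt from a junction in exons of 44 and 81 nt, with scores of 0.536 and 0.697. Eif2b3 (gamma) held none.

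Of the 3 eIF2 alpha kinases among the members, only Eif2ak3, also called PERK, the sensor of stress in the endoplasmic reticulum, held sites. It had 9, with scores between 0.685 and 0.842, and together with Eif3a the most of any member. In exon 13 they covered 5 DRACH motifs among 20, between 1119 and 656 nt before the stop codon, and the other 4 lay 68 to 194 nt after it.
Eif2ak3, exon 13, chr6:70892544-70892564, plus strand: gttctcagGGACAgactgcgg
Eif2ak3, exon 13, chr6:70892611-70892631, plus strand: tgcctgacGGACTgcgaggac
Eif2ak3, exon 13, chr6:70892657-70892677, plus strand: atgacgagGGACActcctttg
Eif2ak3, exon 13, chr6:70892923-70892943, plus strand: ttcaccaaGAACActgtgggc
Eif2ak3, exon 13, chr6:70893007-70893027, plus strand: aacctcaaAGACTggatgaac
Eif2ak3, 3′UTR, chr6:70904344-70904364, plus strand: acagcggtGGACTcagatttt
Eif2ak3, 3′UTR, chr6:70904436-70904456, plus strand: tcttaactGAACTtcaaggaa
Eif2ak3, 3′UTR, chr6:70904462-70904482, plus strand: tgtgtaaaGGACAcatgaact
Eif2ak3, 3′UTR, chr6:70904470-70904490, plus strand: ggacacatGAACTtgttgctt
The exon 13 sites scored 0.722, 0.842, 0.719, 0.685 and 0.829, and those after the stop codon 0.841, 0.806, 0.807 and 0.727. The scores of both clusters covered much the same range. Eif2ak1, the haem-regulated kinase, and Eif2ak4, or GCN2, which senses uncharged tRNA, held no site, although the Eif2ak4 transcript is 5212 nt long and has 2 coding exons over 400 nt with 14 and 9 DRACH adenosines.

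In eIF3, the large scaffold on the small subunit, 7 of 14 genes held 23 sites, 18 of them in the CDS. Eif3a, its largest subunit, held 9, all in the CDS and none in its 3′UTR of 964 nt. The cluster of 5 in exon 19 is shown because it holds 3 motifs other than GGACT and 2 sites 7 nt apart.
Eif3a, exon 19, chr19:60766719-60766739, minus strand: ggtgatgaTGACAggggaagc
Eif3a, exon 19, chr19:60766670-60766690, minus strand: ccagacggGGACTggatgatg
Eif3a, exon 19, chr19:60766629-60766649, minus strand: gcagatgaGGACAgaggacct
Eif3a, exon 19, chr19:60766622-60766642, minus strand: aggacagaGGACCtagacgag
Eif3a, exon 19, chr19:60766469-60766489, minus strand: atgaccgaGGACCttggagga
Their scores were 0.606, 0.841, 0.794, 0.784 and 0.811. The other Eif3a sites were GGACT in exon 11 (0.6997), AGACA in exon 21 (0.588), and GGACT and AAACT in the last exon, 180 and 33 nt before the stop codon (0.865 and 0.596). Eif3b held 3 sites in the 3′UTR, with scores of 0.829, 0.934 and 0.944, and 1 in the CDS at GGACG (0.823). Eif3h held 2 in the 3′UTR (0.947 and 0.906) and 1 in an exon of 100 nt (0.580). Eif3c, Eif3i and Eif3l held 2 CDS sites each and Eif3d 1. Eif3e, Eif3f, Eif3g, Eif3j1, Eif3j2, Eif3k and Eif3m held none.

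Around the cap, Eif4e, the cap-binding protein, held 2 GGACT sites in the 3′UTR, 90 and 402 nt past the stop codon, with scores of 0.915 and 0.691. Eif4e3 held 1, at 148 nt (0.854), which also lies inside the overlapping gene model Gm20696. Eif4e2, which binds the cap without joining eIF4G, held 2 CDS sites in exons of 115 and 137 nt, with 0.612 and 0.608, and Eif4e1b held none. In the regulators of eIF4E, among them the binding proteins that keep it from eIF4G, every site was in the 3′UTR, 10 sites in 3 of 4 genes. Of all sites in protein-coding genes 43.4% were. Eif4ebp1 held 2 and Eif4ebp2 6, Eif4enif1, which carries eIF4E into the nucleus, 2, and Eif4ebp3 none. Eif4ebp1 and Eif4ebp2 have a CDS of only 354 and 363 nt beside 3′UTRs of 1563 and 5306 nt. In Eif4enif1 the CDS has 2952 nt and the 3′UTR 496.
Eif4ebp1, 3′UTR, chr8:27275192-27275212, plus strand: taccaggcAGACActgggtgt
Eif4ebp1, 3′UTR, chr8:27275322-27275342, plus strand: caggggaaTGACTctcactca
Eif4ebp2, 3′UTR, chr10:61433738-61433758, minus strand: tgtgcaccTGACTggcccagt
Eif4ebp2, 3′UTR, chr10:61432029-61432049, minus strand: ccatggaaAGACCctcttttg
Eif4ebp2, 3′UTR, chr10:61432013-61432033, minus strand: ttttgtgaAGACTttaggaaa
Eif4ebp2, 3′UTR, chr10:61431990-61432010, minus strand: caaagaagGGACAtcttcaga
Eif4ebp2, 3′UTR, chr10:61431530-61431550, minus strand: tgagcaggGAACTgtttccct
The Eif4ebp1 sites lay 93 and 223 nt past the stop codon, with scores of 0.753 and 0.876. The first Eif4ebp2 site lay at 51 nt with a score of 0.568. The others lay 1760 to 2259 nt past the stop codon within a 3′UTR of 5306 nt, with scores of 0.553, 0.799, 0.870, 0.937 and 0.726. The site near the stop codon of Eif4ebp2 thus scored lower than 4 of the 5 far from it.

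All 3 genes of the eIF4G family, the scaffolds of the cap complex, held sites, 17 in all, 13 of them in the CDS. Exon numbers and distances for Eif4g1 and Eif4g3 rest on models of support level 5. In Eif4g1 the 4 sites of exon 9 (TGACA 0.738, AAACT 0.809, GAACT 0.817 and ATACT 0.515) lay 3786 to 3426 nt before the stop codon, and 4 more lay at the end of the CDS and in the 3′UTR. In Eif4g3 exon 11 held AGACT (0.583), GGACT (0.659), GAACT (0.737), GAACA (0.793) and GGACA (0.627), exon 19 held GAACT (0.795), and a seventh site (GGACA, 0.586) lay outside the chosen model, which has no UTR, and inside the 3′UTR of 4 of the gene's 15 transcripts. The proteins encoded by these transcripts were 52.7% identical over 1506 aligned residues, and exon 9 of Eif4g1 aligned with exon 11 of Eif4g3 over 230 residues at 28.3% identity. The clustered sites thus fell into corresponding exons that were less alike than the proteins as a whole, and no pair of sites lay within 2 aligned codons of each other. Eif4g2, which lacks the eIF4E-binding part, held 2 sites in exons of 132 and 67 nt (0.598 and 0.502). The latter reads AGACA in the genome but CAACA across the splice junction, the only Eif site whose motif differed between the genome and the spliced transcript.

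The end of the Eif4g1 CDS is shown because a site without a DRACH motif lies on it. The adenosine of CAACT is 2 nt before the first base of the stop codon, and its score was 0.658. The next 3 sites, 35, 68 and 337 nt past that base, scored 0.895, 0.925 and 0.850.
Eif4g1, exon 32, chr16:20692417-20692437, plus strand: tctgatcaCAACTgatggcgg
Eif4g1, 3′UTR, chr16:20692454-20692474, plus strand: ggagccatGGACAcgtggatg
Eif4g1, 3′UTR, chr16:20692487-20692507, plus strand: agccgcctGGACTgcaggggg
Eif4g1, 3′UTR, chr16:20692756-20692776, plus strand: cactcttgGGACTgccgtcct

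Among the helicases and their cofactors, Eif4a3, the eIF4A paralogue of the exon junction complex, held a GGACT site 69 nt past the stop codon with a score of 0.926. Eif4a1, the main initiation helicase, held only a low-scored site (0.566) at GGATT in its first exon of 39 nt, position 33 of the transcript and 7 nt from the junction, and Eif4a2 held none. The RNA-binding cofactors Eif4b and Eif4h held 3 and 4 sites, with scores of 0.509 to 0.796 and 0.671 to 0.725. Late in initiation, Eif5, the GTPase activator of eIF2, held 3 sites, 1 in each region, with scores of 0.673, 0.748 and 0.740 in transcript order. Eif5b, the GTPase that joins the subunits, held 5, of which AGACT (0.740), AAACT (0.7001) and AGACC (0.623) lay in exon 4, GGACT (0.670) in exon 10 and GGACG (0.608) 76 nt past the stop codon. Its 3′UTR of 3866 nt held no other site. Eif5a, known for relieving stalled ribosomes, held 3 sites and its paralogue Eif5a2 none. Eif6, which keeps the large subunit from joining too early, was the only member whose sites were all in the 5′UTR. Both were GGACT, 43 nt apart, and the Eif6 scores were 0.773 and 0.747.
Eif6, 5′UTR, chr2:155826622-155826642, minus strand: agctgttgGGACTctgggcgg
Eif6, 5′UTR, chr2:155826579-155826599, minus strand: gggcgagaGGACTtggggcag

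By part of the transcript, the Eif scores were lowest in short internal exons, where the median of 19 sites in 14 genes was 0.608, and highest in the 3′UTR within 200 nt of the stop codon, where the median of 26 sites was 0.842. In CDS exons over 400 nt before the last the median of 28 sites was 0.742. Over all genes the corresponding medians were 0.592, 0.793 and 0.710. Of the 9 Eif sites outside DRACH in the genome sequence, 8 still had the listed adenosine before a C, 3 of them as GGACG, and the ninth was the Eif4a1 site. Their median score was 0.608, against 0.842 at GGACT and 0.732 at other DRACH motifs. Over all genes these medians were 0.608, 0.803 and 0.729. Sequence and region are features of the classifier, so the order of scores by motif or by part is not independent of it. DRACH adenosines of the 34 Eif transcripts were listed most often at GGACT, 24 of 128 or 18.8% (all genes with a site, 17.01%).

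**Figure D4:**
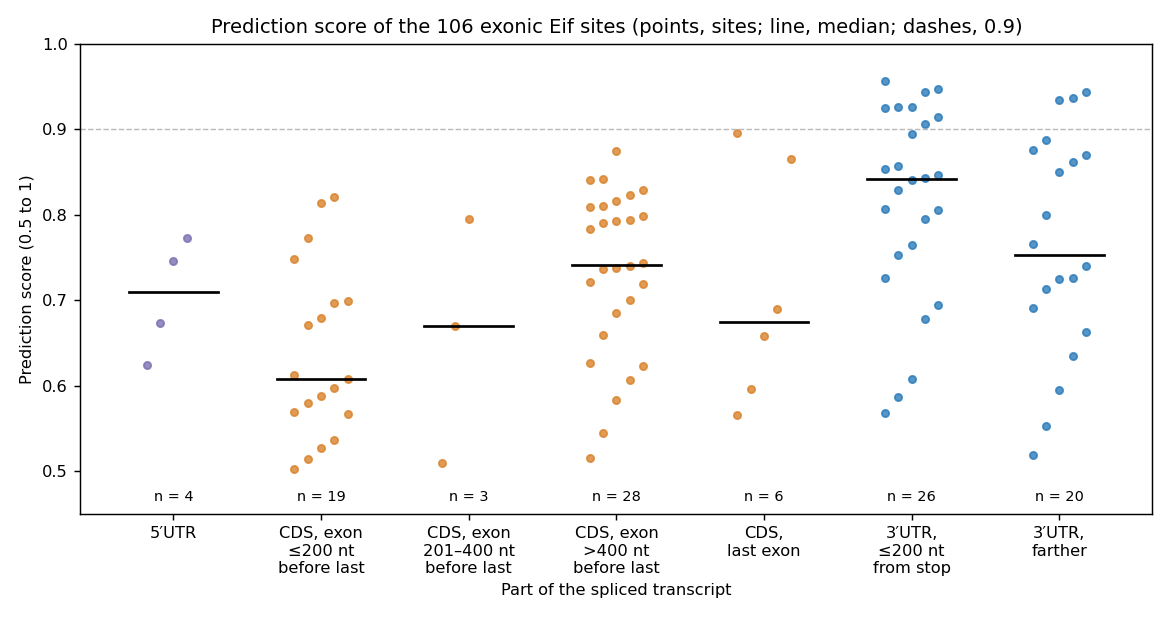
Prediction score (vertical axis, 0.5 to 1) of the 106 exonic Eif sites by part of the spliced transcript (horizontal axis), each point a site, lines the medians, the dashed line 0.9. Sites in exons of at most 200 nt before the last had a median of 0.608 and those in the 3′UTR within 200 nt of the stop codon a median of 0.842. Of the Eif sites, only those in the 3′UTR reached 0.9. Over all genes the corresponding medians were 0.592 and 0.793, and CDS sites scored up to 1.

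Absence from the list was set beside the uniqueness of the transcript, because the authors kept only uniquely mapping reads. Several eIF transcripts share much of their sequence with other places in the genome. For each member the share of the 31-nt stretches of its transcript that also occur outside the gene in GRCm38 was counted. It was 40% or more in 11 members, a limit chosen after the values were seen, and 7 of these held no site, namely Eif2s3x (94.7%), Eif3j1 (87.6%), Eif3j2 (85.9%), Eif1 (70.4%), Eif3m (58.3%), Eif3e (51.3%) and Eif4a2 (40.02%). The other 4 were Eif4a1 (91.3%), Eif2s2 (45.5%), Eif4a3 (45.2%) and Eif3h (42.8%), with 6 sites together. Of the 43 members below that share 13 held no site, and in 9 of those 13 under 1% of the stretches were repeated, Eif2ak4, Eif2b3, Eif3g and Eif4ebp3 having none at all. The median share was 4.48% in members with a site and 5.10% in members without. In the repeated stretches of these transcripts, which make up nearly all of Eif2s3x and Eif4a1, reads may have been lost in mapping. There an unmethylated adenosine cannot be told apart from one with lost reads. The sequenced reads could be longer than 31 nt, so a read over a repeated stretch may still have mapped uniquely. Read mapping was not examined, and whether lost reads have a part in the missing sites was not tested.

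**Figure D5:**
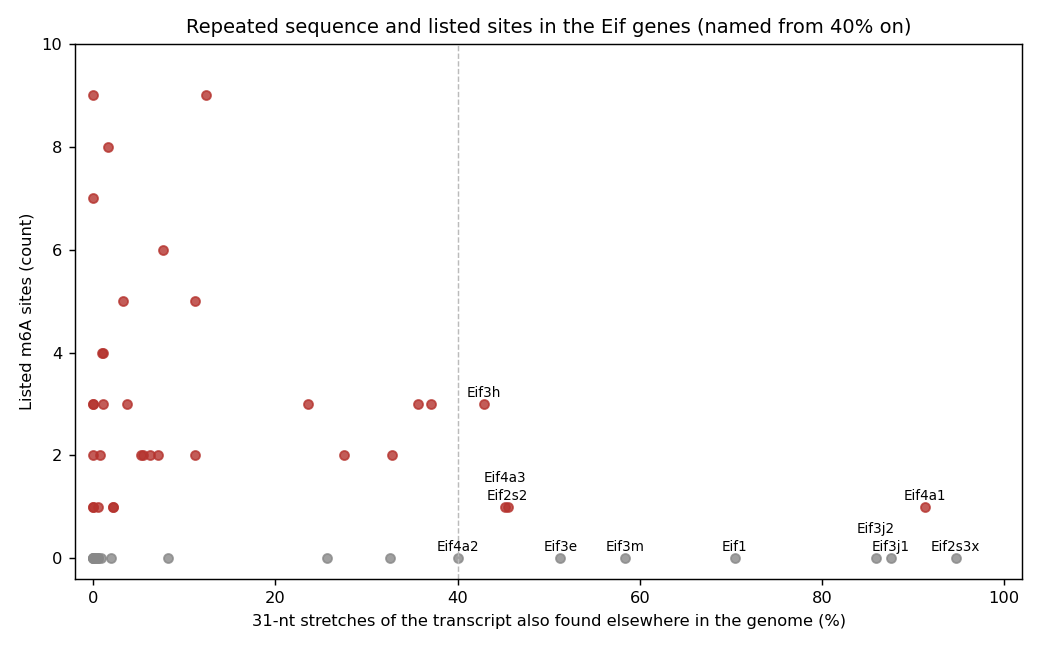
Number of listed sites (vertical axis, count) against the share of 31-nt stretches of the transcript found elsewhere in the genome (horizontal axis, percent) for the 54 Eif genes, red with and grey without a site, named from 40% on. Of the 11 named genes 7 held no site and none held more than 3.

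A list of 38 other translation genes shows the surroundings of the family: 26 held a site, 99 sites in all, where 23.1% of all protein-coding genes did. In the integrated stress response, which starts from eIF2 phosphorylation, 6 of 7 genes did, among them Ppp1r15a and Ppp1r15b, which direct a phosphatase to eIF2 alpha, with 3 and 16 sites, Trib3 with 9 and Atf4, the transcription factor made when eIF2 is phosphorylated, with 4. Of 10 genes of mTORC1 and its targets 6 did, with 10 sites each in Rptor, the subunit that recruits the eIF4E-binding proteins, and in Larp1. Both eIF4E kinases, Mknk1 and Mknk2, held sites (1 and 3). The counts were 4 of 6 for elongation, 4 of 5 for poly(A)-binding proteins and their partners, 2 of 3 for helicases and the eIF4A inhibitor Pdcd4, which held none, and 2 of 5 for termination and recycling.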

How the data were processed

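RAW 264.7 poly(A)+ RNA (1 µg per replicate) was processed by miCLIP2 in 3 biological replicates. Per the submitters' processing notes, the authors used STAR 2.7.3a, SAMtools 1.9, UMI-tools 1.0.0 and bedtools 2.27.1 on GRCm38. Per their methods, they kept uniquely mapping reads, removed duplicates by molecular identifiers, called peaks on each replicate, kept those in at least 2 replicates and scored adenosines with m6Aboost. The deposited values are prediction scores above 0.5 in 1 list for all replicates; counts and depth are not in it, so depth limits cannot be computed, and intervals cover counting error only.

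Members and lists were chosen with earlier results of these data known. Sites were intersected with GENCODE M21 genes on the same strand, whereas the authors annotated with another GENCODE release, and placed on the transcript with the longest CDS; placement was tested on simulated positions. Motifs and 31-mers were read from GRCm38.p6 on both strands (31-mers) or the gene's strand (motifs). Shares carry 95% Wilson intervals (SciPy 1.17.1, pysam 0.24.0, Biopython 1.88, Python 3.11.15). No significance test was run, because sites and genes are not replicates. Every member with a site is named; single sites are described for the 6 members with most sites, the 5 highest-scored sites and Eif4ebp1, and other single sites were added after their values were seen. Alternatives were a minimum score of 0.7 or 0.9, merged neighbours, other transcripts, fewer members, other motifs and other stop-codon windows.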

Additional observations from a re-analysis of the deposited data

How the results depend on the processing

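Of 53 alternative values, 32 stayed within a set range of the reported value and 21 moved out of it. The range was 1.5 times for counts of genes and sites, and the 95% interval of the reported value for shares and for sites per kb. Most moves came from the minimum score. At 0.7 the Eif genes held 64 sites, of which 96.9% were at DRACH, 42.2% coding and 54.7% in the 3′UTR, with 0.403 sites per kb and 1.84% of DRACH adenosines listed, and 84.0% of their CDS sites before the last exon lay in exons over 200 nt, against 93.6% in all genes (62.0% and 86.4% as deposited; this alternative was chosen after seeing the data, as were those for other transcripts and merged neighbours for this share, and the longest spliced transcript for the stop codon share). At 0.9, 11 sites in 9 Eif genes and 6 other translation genes remained, 100% at DRACH, in the 3′UTR and in the last exon, 0% in the CDS and 72.7% within 200 nt of the stop codon, with 0.0692 sites per kb and 0.326% of DRACH adenosines listed, and the share in long internal exons has no value. The DRACH share became 83.2% for RRACH and 99.1% for any A followed by C. The stop codon share was 19.8% within 100 nt and 44.3% within 400 nt. No paired analysis was possible because the deposited file is a joint list for untreated cells, with no values of single replicates, so that leaving replicates out was not possible either. The list has no reads per site, so a site missed for want of coverage cannot be told apart from an unmethylated adenosine.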

Other observations

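Neighbouring Eif sites of a transcript lay a median of 150 nt apart, against 101 nt over all protein-coding genes. Of 72 neighbouring pairs 4 lay at most 10 nt apart, in Eif2a, Eif2ak3, Eif2b1 and Eif3a, or 5.56% (95% Wilson interval 2.18 to 13.4%) against 7.31% of all pairs, and the closest were 7 nt apart. In each of these 4 pairs the upstream site had the higher score, as in Eif2b1, with 0.663 at AGACA and 0.518 at AAACA. Among the 20 neighbouring pairs at most 50 nt apart the order went both ways, and it was not computed over all genes. CDS and 3′UTR sites occurred together in 11 Eif genes, 12 had CDS sites but none in the 3′UTR of the chosen transcript (among them Eif4g3, whose chosen model has no UTR), and 10 had 3′UTR sites but none in the CDS. The difference from all genes was not tested.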
